A study of Mus musculus with 6 samples.

Results

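The group described here holds 10 circadian clock and clock output genes, which were the rows named Per1, Per2, Per3, Clock, Nr1d1, Nr1d2, Dbp, Tef, Hlf and Ciart among the 17550 genes of a deposited table of mouse kidney RNA. All 10 were present, and all 10 passed the filter on low values, a mean normalized count of at least 10. The study compared kidneys of KC-Tie2 mice, a psoriasis model in which the receptor tyrosine kinase Tie2 is overexpressed in keratinocytes, with kidneys of Control mice, and each genotype gave 3 poly(A)-selected libraries from saline-perfused organs. The labels give neither the promoter of the transgene nor strain, sex, age or time of collection. Nor do they state that each library comes from its own mouse, so a p-value here reflects only how far the libraries spread, which may be technical. In the authors' own comparison table the group set against KC-Tie2 is headed WT.

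The mammalian clock is a feedback loop of transcription. CLOCK, or its paralog NPAS2, pairs with BMAL1 (the product of Arntl) and binds E-box sequences in the genes of its own repressors, the PER and CRY proteins. A second loop runs through the nuclear receptors REV-ERB alpha and beta (Nr1d1 and Nr1d2), which repress Arntl, and the PAR bZIP factors DBP, TEF and HLF carry the rhythm to output genes through D-box sequences, where they are opposed by the repressor NFIL3. In mouse kidney and other organs, Arntl and Npas2 transcripts peak at another time of day than those of Dbp, Per2 and Nr1d1, so a snapshot of these genes depends on when a tissue was taken.

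Upstream sequence was read from RefSeq promoter windows of build GRCm38.p6, each running from 250 bases before to 50 bases after an annotated start. The deposited gene coordinates are on mm39, and the 2 builds were not combined. Of the 10 genes, 9 matched, with 13 windows between them, and Per2 was not matched. Some genes have several windows, so a count of genes and a share of windows below are in unlike units. On either strand, the E-box CACGTG was in a window of 3 of the 9 genes (Per1, Tef and Ciart) and in 7.15% of all 32851 windows of the table. The E-prime box CACGTT, read on the other strand as AACGTG, was in the window of Nr1d1 and in 4.68% of all windows. The D-box TTATGTAA was in the window of Per3 and in 0.938% of all windows, its variant TTACGTAA in none of the 13 windows and in 0.119% of all, and the cyclic AMP response element TGACGTCA in the window of Hlf and in 1.79% of all. The ROR element core TAGGTCA was in none of the 13 windows and in 2.61% of all. Outside the 10 genes, it was in the window of Nfil3 and in a window of Arntl, there at base 31 after the start. Below are the 250 bases before the start, 5′ to 3′ along the gene, with motif matches in capitals, for the member with the most E-boxes, for a PAR bZIP gene with an E-box, for the member with D-boxes, and for Nfil3, the opposing repressor. A match describes the letters only, and no match says only that these letters are not in the window.

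Ciart, chr3:95882229-95882478, minus strand: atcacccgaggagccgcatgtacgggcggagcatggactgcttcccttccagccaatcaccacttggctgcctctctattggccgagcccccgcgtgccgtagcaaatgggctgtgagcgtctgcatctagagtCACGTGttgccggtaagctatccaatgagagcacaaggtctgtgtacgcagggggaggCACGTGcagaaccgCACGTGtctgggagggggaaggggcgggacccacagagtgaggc

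Tef, chr15:81802423-81802672, plus strand: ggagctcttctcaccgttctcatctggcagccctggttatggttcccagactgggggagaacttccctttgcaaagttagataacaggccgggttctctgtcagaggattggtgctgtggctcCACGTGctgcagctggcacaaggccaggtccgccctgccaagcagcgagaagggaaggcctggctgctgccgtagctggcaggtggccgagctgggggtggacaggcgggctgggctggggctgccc

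Per3, chr4:151044666-151044915, minus strand: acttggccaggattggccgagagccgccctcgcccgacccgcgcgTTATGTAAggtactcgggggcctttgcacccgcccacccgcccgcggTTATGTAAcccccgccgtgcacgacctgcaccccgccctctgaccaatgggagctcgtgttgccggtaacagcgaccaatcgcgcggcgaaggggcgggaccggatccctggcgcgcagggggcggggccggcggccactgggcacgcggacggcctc

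Nfil3, chr13:52981040-52981289, minus strand: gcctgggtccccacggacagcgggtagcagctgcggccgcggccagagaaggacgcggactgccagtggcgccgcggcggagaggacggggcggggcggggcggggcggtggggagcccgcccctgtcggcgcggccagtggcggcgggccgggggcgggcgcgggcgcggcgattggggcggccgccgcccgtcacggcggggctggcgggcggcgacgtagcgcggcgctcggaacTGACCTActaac

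The E-boxes of Ciart begin 116, 58 and 44 bases before the start, and the D-boxes of Per3 205 and 158 bases before it. In the Tef window shown, the E-box begins 127 bases before the start. Another window of Tef, not shown, has an E-box 138 bases before its own start. In Nfil3 the capitals mark the reverse complement of the ROR element core, TGACCTA, 12 bases before the start.

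Values are the authors' normalized counts, in which each library was scaled by 1 factor, so a gene can be compared between libraries but not with another gene. The depth before scaling, estimated from the step between low values, lay at 21300000 to 29500000 counts in KC-Tie2 libraries and 18800000 to 29400000 in Control libraries. The lowest estimated count of a member in any library was 61, for Ciart, and 532 or more for the other 9. The 12 markers of kidney cells, from proximal tubule to podocyte and endothelium, were all in the table. None was called, and 5 had an unadjusted p under 0.05 in limma's test, against 15.3% of all genes tested. Adrenal cortex was represented by 1 of its 6 markers, Star. The fat markers Ucp1, Cidea, Adipoq and Plin1 summed to 671, 7.502 and 35.4 in KC-Tie2 replicates 1 to 3 and to 1284, 70.2 and 14.9 in Control replicates 1 to 3, highest in replicate 1 of each genotype; their part in the results below was not tested. Haemoglobin transcripts summed to 4956, 919 and 3926 in KC-Tie2 and 1837, 2155 and 1422 in Control replicates 1 to 3, and none of these 4 genes was called or had an unadjusted p under 0.05. Of 6 listed neutrophil markers 3 were in the table, and of 6 listed lymphocyte markers 4. The 3 neutrophil markers in the table and 3 of 6 macrophage markers were called higher in KC-Tie2 kidneys, and 2 of 4 lymphocyte markers lower. Of all genes tested, 1.69% were called in either direction. The 3 neutrophil markers had low values, with sums of 145, 118 and 58.1 in KC-Tie2 and 8.40, 17.3 and 13.5 in Control replicates 1 to 3. S100a8 and S100a9 had Control means of 0.28 and 2.63, so they passed the filter only through their KC-Tie2 values. The Control mean of Csf3r was 10.2. Without KC-Tie2 replicate 1 or 2, or Control replicate 1 or 3, the neutrophil calls numbered 0 and the macrophage calls 1. The lymphocyte calls numbered 0 without KC-Tie2 replicate 2 or Control replicate 3, and 1 without KC-Tie2 replicate 1 or Control replicate 2. Ddx3y, a gene of the Y chromosome, had 668 to 934.5 in KC-Tie2 and 859 to 1006 in Control libraries. Xist, the RNA of the inactive X chromosome, had 38.2, 25.6 and 241 in KC-Tie2 and 98.4, 89.3 and 415 in Control replicates 1 to 3, highest in replicate 3 of each genotype; its part in the results below was not tested. In bulk RNA, fewer cells of a type and less RNA per cell cannot be told apart.

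Called means an adjusted p under 0.05 in limma's test of KC-Tie2 minus Control on log2(normalized count + 1), adjusted by Benjamini-Hochberg across the 17539 genes that passed the filter. None of the 10 genes was called, against 1.69% of all genes tested. Only Hlf had an unadjusted p under 0.05 (0.0378), against 15.3% of all genes. The KC-Tie2 and Control libraries overlapped at all 10 genes, whereas at 20.0% of genes tested they did not overlap. The log2 fold change was below 0 at 8 of the 10 and above 0 at Per1 and Clock, with a median of -0.22 over the 10 genes and 0.0012 over all genes tested. The Control genotype held the wider spread. The SD of the log2 values had a median of 0.209 over the 10 genes in KC-Tie2 and 0.419 in Control kidneys, against 0.135 and 0.136 over all genes tested. It was larger in Control than in KC-Tie2 libraries at 8 of the 10 genes, and at 50.2% of all genes.

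**Figure D1:**
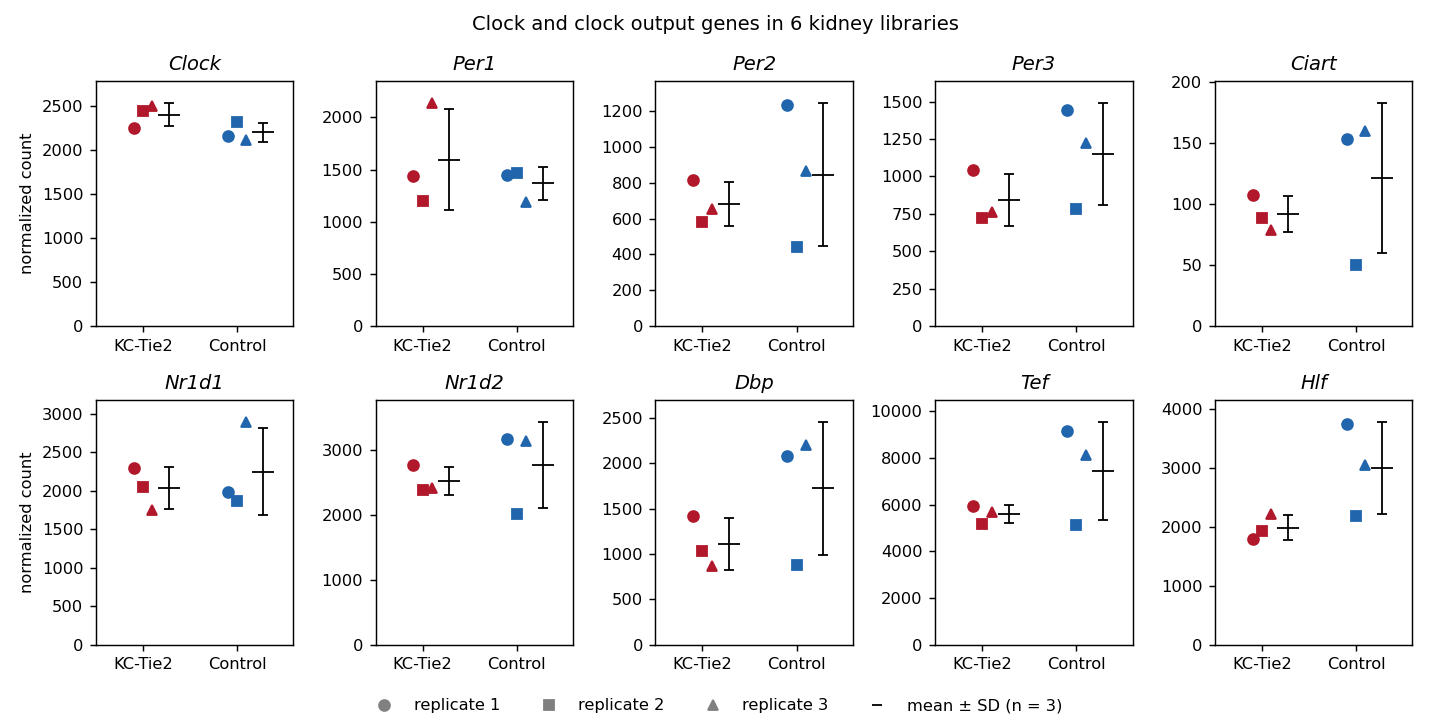
Normalized counts of the 10 genes (vertical axes from 0, one panel per gene) in the KC-Tie2 libraries (red) and Control libraries (blue), with a symbol for each replicate number and a black bar for the mean ± SD (n = 3). Control replicate 2 (blue square) is the lowest Control library in 8 of the 10 panels, and every panel shows overlap between the genotypes.

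Clock, the DNA-binding activator of the loop (chromosome 5, 76357715 to 76452639, mm39), is known for a flat profile in many tissues. It had 2252, 2445 and 2500 normalized counts in KC-Tie2 replicates 1 to 3, against 2161, 2322 and 2112 in Control replicates 1 to 3. All 6 libraries lay within 1.18-fold of each other, the narrowest range of the 10 genes. The log2 fold change was 0.13 ± 0.07 (SE; 95% interval -0.03 to 0.28; limma adjusted p = 0.434).

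Its partner gene Arntl and its paralog Npas2, which are not among the 10, did vary. Arntl had 261, 327 and 299 in KC-Tie2 replicates 1 to 3, against 146, 391 and 173 in Control replicates 1 to 3. Npas2 had 134, 240 and 259 in KC-Tie2 and 113, 397 and 169 in Control replicates 1 to 3. Both were highest of all 6 libraries in Control replicate 2 and lowest in Control replicate 1, and neither was called (limma adjusted p = 0.673 and 0.984).

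Among the period genes, which encode the repressors of CLOCK and BMAL1, Per2 (chromosome 1, 91343704 to 91387046) varied most. It had 817, 579 and 652 in KC-Tie2 replicates 1 to 3, against 1234, 439 and 865 in Control replicates 1 to 3. The Control libraries held both the highest and the lowest value, 2.81-fold apart, and all 3 KC-Tie2 values fell between them. The log2 fold change was -0.20 ± 0.44 (SE; 95% interval -1.38 to 0.97; limma adjusted p = 0.887).

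Per3 (chromosome 4, 151088109 to 151129122), the period gene whose upstream window is shown above with 2 D-boxes, had 1044, 719 and 764 in KC-Tie2 replicates 1 to 3, against 1447, 779 and 1220 in Control replicates 1 to 3. KC-Tie2 replicates 2 and 3 and Control replicate 2 formed the low end. It differed by a log2 fold change of -0.42 ± 0.29 (SE; limma adjusted p = 0.58).

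Per1 (chromosome 11, 68986043 to 69000786), which also responds to glucocorticoids and to cyclic AMP signalling, did not follow the other period genes. It had 1441, 1202 and 2135 in KC-Tie2 replicates 1 to 3, against 1449, 1466 and 1187 in Control replicates 1 to 3. One library, KC-Tie2 replicate 3, stood above the other 5. The SD of its log2 values was 0.42 in KC-Tie2 kidneys, larger than that of 90.5% of genes tested, and 0.17 in Control kidneys. The log2 fold change was 0.18 ± 0.23 (SE; limma adjusted p = 0.789), and without KC-Tie2 replicate 3 it was -0.05. Of 10 glucocorticoid-responsive genes, 7 were highest among KC-Tie2 libraries in replicate 3, against 34.4% of all genes tested. At 4 of these 7, replicate 3 was the highest of all 6 libraries. The remaining 3 of the 10, Zbtb16, Dusp1 and Pdk4, were highest among KC-Tie2 libraries in replicate 1. All 10 were lowest among KC-Tie2 libraries in replicate 2, against 28.9% of all genes tested. The order among Control libraries was another one. Of the 10, 6 were highest in Control replicate 1 and 6 were lowest in Control replicate 2, against 30.8% and 36.1% of all genes tested. Per1 was highest in Control replicate 2 and lowest in Control replicate 3, as were 2 and 4 of the 10. Tsc22d3 had 1240, 624 and 1624 in KC-Tie2 replicates 1 to 3 against 1542, 1234 and 981 in Control replicates 1 to 3, while Fkbp5 had 2073, 2040 and 2578 in KC-Tie2 against 2997, 1270 and 2161 in Control replicates 1 to 3. Sgk1, another gene induced by glucocorticoids and by aldosterone, had 2849, 1689 and 3442 in KC-Tie2 and 2161, 3078 and 1099 in Control replicates 1 to 3. Their part in the Per1 values was not tested.

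Ciart, also called Chrono, encodes a further repressor of CLOCK and BMAL1 (chromosome 3, 95785815 to 95789563). It had the widest range of the 10 genes. Ciart had 108, 88.4 and 78.9 in KC-Tie2 replicates 1 to 3, against 153, 50.4 and 160 in Control replicates 1 to 3. The Control values spanned 3.17-fold, and their log2 SD of 0.93 was larger than that of 98.7% of genes tested. All 3 KC-Tie2 values lay inside the Control range, and the log2 fold change was -0.24 ± 0.46 (SE; 95% interval -1.34 to 0.86; limma adjusted p = 0.868).

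The REV-ERB genes differed from each other. Nr1d1 (chromosome 11, 98658758 to 98666159) had 2292, 2052 and 1754 in KC-Tie2 replicates 1 to 3, against 1976, 1861 and 2895 in Control replicates 1 to 3. One library, Control replicate 3, was high, and the other 5 lay between 1754 and 2292. Nr1d2 (chromosome 14, 4230569 to 4265642) had 2765, 2384 and 2420 in KC-Tie2 replicates 1 to 3, against 3172, 2007 and 3140 in Control replicates 1 to 3. Control replicates 1 and 3 were the highest and Control replicate 2 the lowest, with the KC-Tie2 libraries in between. The log2 fold changes were -0.12 ± 0.19 for Nr1d1 and -0.11 ± 0.19 for Nr1d2 (SE; limma adjusted p = 0.835 and 0.854).

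Of the PAR bZIP genes, the output arm, Hlf and Dbp had the most negative log2 fold changes of the 10 genes. Dbp (chromosome 7, 45354512 to 45359627), among the most strongly cycling transcripts of mouse organs, had 1424, 1033 and 869 in KC-Tie2 replicates 1 to 3, against 2086, 877 and 2209 in Control replicates 1 to 3. Control replicate 2 sat with the KC-Tie2 libraries, and Control replicates 1 and 3 lay above all others, and the log2 fold change was -0.55 ± 0.46 (SE; 95% interval -1.80 to 0.69; limma adjusted p = 0.669).

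Tef (chromosome 15, 81686622 to 81711064) had 5919, 5180 and 5692 in KC-Tie2 replicates 1 to 3, against 9137, 5101 and 8104 in Control replicates 1 to 3. As at Dbp, Control replicates 1 and 3 lay above all KC-Tie2 libraries and Control replicate 2 did not. The KC-Tie2 values stood within 1.14-fold of each other, while the Control values spanned 1.79-fold. The log2 fold change was -0.37 ± 0.23 (SE; limma adjusted p = 0.527).

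Hlf (chromosome 11, 90227362 to 90281721) came closest to separating the genotypes. It had 1796, 1936 and 2216 in KC-Tie2 replicates 1 to 3, against 3755, 2188 and 3055 in Control replicates 1 to 3. The overlap was that of KC-Tie2 replicate 3 with Control replicate 2. The mean was 1983 ± 213 in KC-Tie2 and 2999 ± 785 in Control kidneys (SD, n = 3 each), and the log2 fold change was -0.57 ± 0.21 (SE; 95% interval -1.09 to -0.05; limma unadjusted p = 0.0378, adjusted p = 0.291).

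In the authors' deposited table Hlf was the 1 gene of the 10 with a step-up FDR under 0.05 (ratio of KC-Tie2 to WT 0.662, p-value 7.82e-05, FDR 0.0042), where 3.91% of the 17550 genes passed. The authors' deposited table gave the other 9 genes FDRs of 0.511 (Tef) to 0.904 (Per2), with a ratio of 0.643 for Dbp. Hlf thus passed in the authors' deposited table and not in the limma test.

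Read across genes, the same libraries stood out from gene to gene. Control replicate 2 was the lowest Control library at 8 of the 10 genes, as at 36.1% of all genes tested, and the highest at the remaining 2, Clock and Per1. Among KC-Tie2 libraries, replicate 1 was the highest at 7 of the 10 genes, as at 32.7% of all genes. At Per2, Ciart and Dbp the Control log2 SD was in the top 5 percent of all genes tested, and no member reached that in KC-Tie2 libraries. Control replicate 2 had an estimated depth of 29400000 counts, the deepest of the Control libraries.

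**Figure D2:**
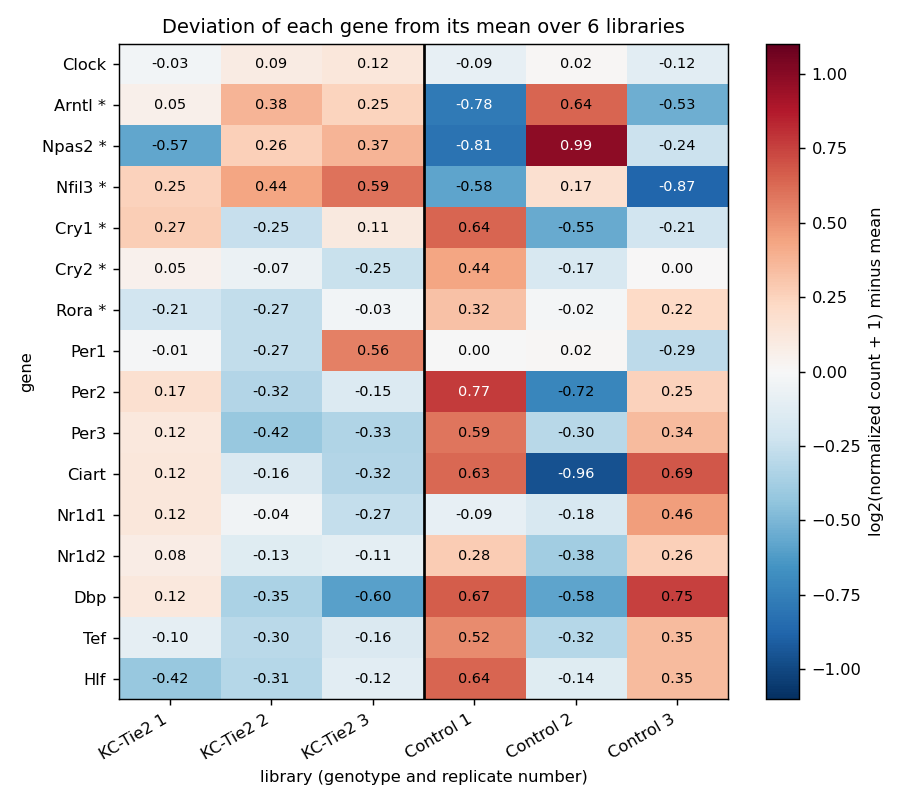
Each cell gives log2(normalized count + 1) minus the gene's mean over the 6 libraries (red above, blue below), for the 10 genes and for 6 other clock transcription factors marked with an asterisk, with KC-Tie2 libraries left of the black line and Control libraries right of it. In Control replicate 2, Npas2 (0.99) and Arntl (0.64) are above their means while Ciart (-0.96), Per2 (-0.72) and Dbp (-0.58) are below theirs, and Control replicates 1 and 3 show the opposite signs.

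Ratios of an output or repressor gene to an activator gene within a library do not depend on the scaling factor. These pairs were chosen after the values were seen, carry no test, and are compared between libraries only. Dbp over Arntl was 5.46, 3.16 and 2.91 in KC-Tie2 replicates 1 to 3, against 14.3, 2.24 and 12.8 in Control replicates 1 to 3. Per2 over Arntl was 3.13, 1.77 and 2.19 in KC-Tie2 and 8.45, 1.12 and 4.99 in Control replicates 1 to 3. In both ratios Control replicate 2 was the lowest of the 6 libraries and Control replicates 1 and 3 the highest, with the KC-Tie2 libraries between.

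Hlf over Nfil3 sets an activator of D-box genes against their repressor. It was 14.7, 13.9 and 14.3 in KC-Tie2 replicates 1 to 3, against 55.0, 18.9 and 55.1 in Control replicates 1 to 3. Here the genotypes did not overlap, and the KC-Tie2 values lay closely together. Nfil3 by itself also did not overlap between the genotypes, as at 20.0% of genes tested. Dbp over Nfil3, another activator over the same repressor, did overlap. It was 11.7, 7.42 and 5.6 in KC-Tie2 and 30.5, 7.59 and 39.8 in Control replicates 1 to 3.

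**Figure D3:**
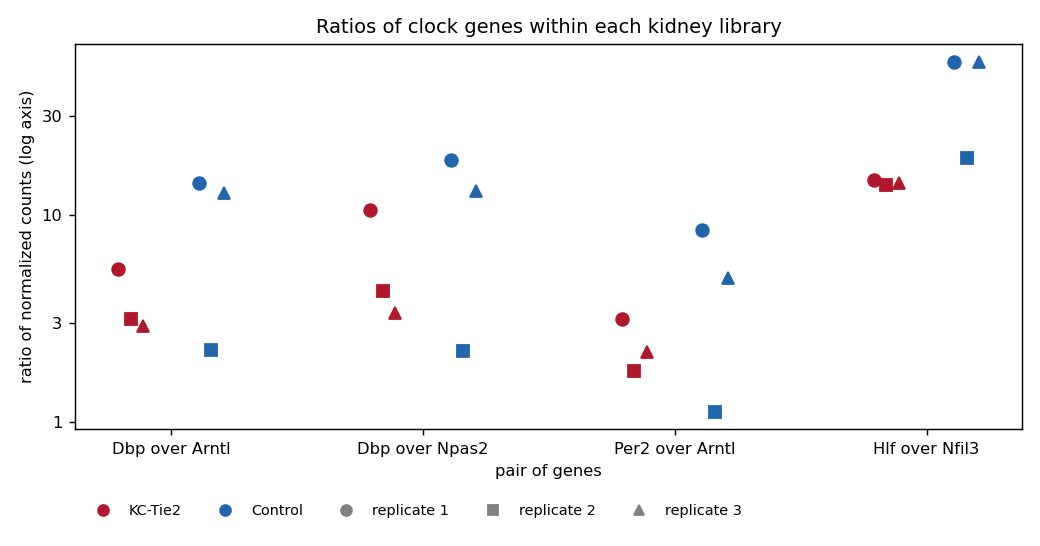
Ratio of the normalized counts of 2 clock genes within each library (log axis) for 4 pairs, KC-Tie2 in red and Control in blue, with a symbol for each replicate number. Dbp over Arntl runs from 2.24 in Control replicate 2 to 14.3 in Control replicate 1, and in the pair Hlf over Nfil3 the KC-Tie2 values (13.9 to 14.7) lie below all Control values (18.9 to 55.1).

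Leaving out 1 library at a time showed how far single libraries set the genotype difference. Control replicate 2 was the lowest Control library at 8 of the 10 genes, so leaving it out raises the Control mean there in any case. The counts in that fit follow in part from these same values, and genes that move together are not separate results. Without Control replicate 2, 8 of the 10 genes had an unadjusted p under 0.05 (17.8% of all genes tested), 7 of them lower and 1, Clock, higher in KC-Tie2 kidneys. Tef and Hlf were then called, both lower, where 3.02% of all genes were called in either direction and 1.71% lower. Tef had a log2 fold change of -0.62 ± 0.09 (SE; limma adjusted p = 0.0079) and Hlf of -0.78 ± 0.11 (limma adjusted p = 0.00932) in that fit, which has 2 Control libraries. Dbp then stood at -0.98 and Ciart at -0.78, neither of them called (limma adjusted p = 0.104 and 0.0567). Without Control replicate 1 or without Control replicate 3, no member was called, and the median log2 fold change over the 10 genes was -0.10 and -0.06, against -0.62 without Control replicate 2. Over the 15 alternatives tried, Tef and Hlf were called in this one alone.

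**Figure D4:**
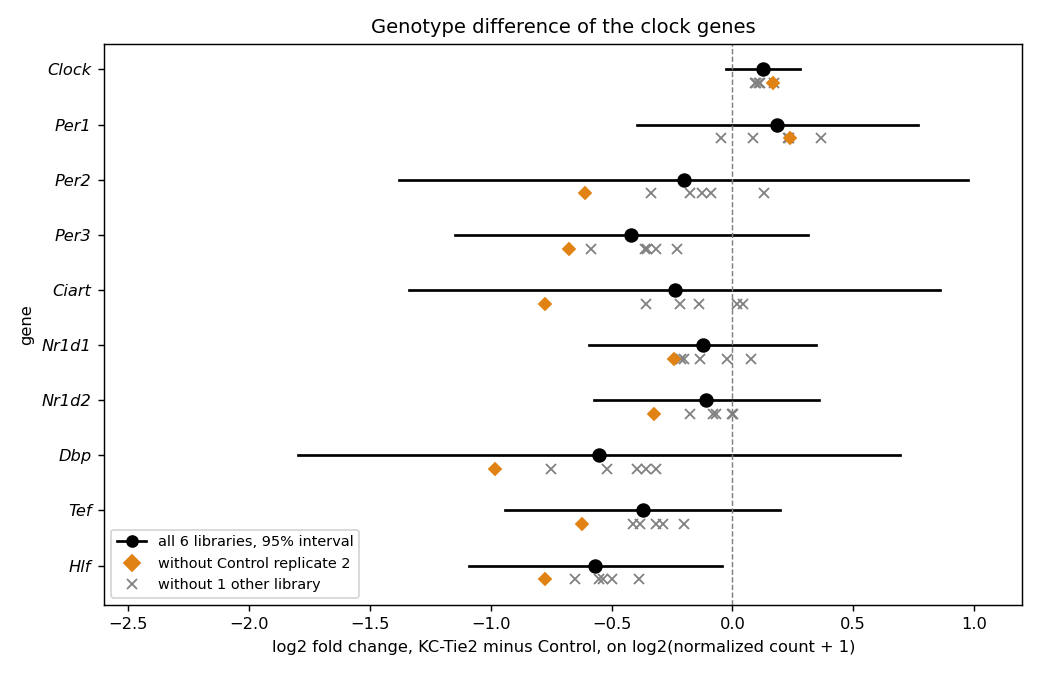
Log2 fold change of the 10 genes, KC-Tie2 minus Control, with all 6 libraries (black circle, bar for the 95% interval), without Control replicate 2 (orange diamond) and without each of the other libraries (grey crosses). The interval crosses 0 at every gene but Hlf (-1.09 to -0.05), and the orange diamonds are the most negative estimate at Per2, Per3, Ciart, Nr1d1, Nr1d2, Dbp, Tef and Hlf.

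The other transcription factors of the clock were read from a list of 12 genes in the table, all tested. None was called in either direction, and 2 had an unadjusted p under 0.05 in limma's test, against 1.69% and 15.3% of all genes tested. Nfil3 had 122, 139 and 155 in KC-Tie2 replicates 1 to 3, against 68.3, 116 and 55.5 in Control replicates 1 to 3, and the genotypes did not overlap (log2 fold change 0.85, limma adjusted p = 0.119). Rora, a nuclear receptor that activates Arntl, had 1986, 1900 and 2252 in KC-Tie2 and 2866, 2260 and 2667 in Control replicates 1 to 3, again without overlap (-0.34 on the log2 scale, limma adjusted p = 0.108). Without Control replicate 2, Arntl (0.88, limma adjusted p = 0.0135) and Nfil3 (1.15, limma adjusted p = 0.0149) were called higher and Rora (-0.44, limma adjusted p = 0.0242) was called lower. Control replicate 2 was the highest Control library at Arntl and Nfil3 and the lowest at Rora, so leaving it out widens these differences in any case. Rora was also called lower without KC-Tie2 replicate 3 (limma adjusted p = 0.0489) and with library weights (limma adjusted p = 0.0445).

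The cryptochrome gene Cry1 had 72.2, 50.01 and 64.4 in KC-Tie2 and 93.5, 40.5 and 51.4 in Control replicates 1 to 3. Cry2 had 633, 584 and 515 in KC-Tie2 and 830, 543 and 614 in Control replicates 1 to 3. Bhlhe41, which encodes the repressor DEC2, had 186, 137 and 99.98 in KC-Tie2 and 175, 71.2 and 116 in Control replicates 1 to 3, while its relative Bhlhe40 had 1955, 1835 and 1380 in KC-Tie2 and 2573, 1539 and 2292 in Control replicates 1 to 3. Cry1, Cry2, Bhlhe40 and Bhlhe41 were each lowest among Controls in replicate 2. Rorb had 43.3 to 61.7 in KC-Tie2 and 39.2 to 52.9 in Control libraries. Arntl2 had 26.6 to 45.0 in KC-Tie2 and 20.3 to 30.6 in Control libraries, and Timeless had 71.7 to 102 in KC-Tie2 and 70.2 to 74.6 in Control libraries.

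Genes for the kinases and ubiquitin ligases that set the stability of PER and CRY proteins were steadier. Of 9 tested, none was called and 1, the ligase gene Fbxl21, had an unadjusted p under 0.05 (67.7, 84.2 and 92.5 in KC-Tie2 against 117, 93.3 and 118 in Control replicates 1 to 3, limma adjusted p = 0.309). The casein kinase gene Csnk1e had 510, 399 and 358 in KC-Tie2 and 382, 412 and 318 in Control replicates 1 to 3 (limma adjusted p = 0.608).

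Of 7 transcripts known to cycle in many mouse tissues, none was called and 1 had an unadjusted p under 0.05. That was Leo1, with 339, 371 and 337 in KC-Tie2 and 255, 322 and 296 in Control replicates 1 to 3 (limma adjusted p = 0.294). Wee1, a cell cycle kinase gene with E-box control, had 372, 288 and 255 in KC-Tie2 replicates 1 to 3 and 579, 237 and 429 in Control replicates 1 to 3 (limma adjusted p = 0.719). Control replicates 1 and 3 were the highest and Control replicate 2 the lowest of the 6. The deubiquitinase gene Usp2 had 2917, 2879 and 3657 in KC-Tie2 and 4110, 2459 and 3796 in Control replicates 1 to 3.

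Targets of the PAR bZIP factors are known from mouse liver. Of 6 tested, 1 was called and 5 had an unadjusted p under 0.05, against 1.69% and 15.3% of all genes tested. The 5 went in both directions, with Cyp2a5, Cyp2a4 and Por lower and Alas1 and Pdxk higher in KC-Tie2 kidneys. The called gene was the cytochrome P450 gene Cyp2a5. Cyp2a5 fell to 1988, 1437 and 2031 in KC-Tie2 replicates 1 to 3, against 3326, 3021 and 3901 in Control replicates 1 to 3. Its log2 fold change was -0.92 (limma adjusted p = 0.0387). The Cyp2a5 call was lost without KC-Tie2 replicate 1, Control replicate 1 or Control replicate 3 (limma adjusted p = 0.107, 0.154 and 0.0974). Its close paralog Cyp2a4, with which it may share reads, had a log2 fold change of -0.52 (limma adjusted p = 0.0599). Alas1, the rate-limiting enzyme of haem synthesis, had 3476, 3202 and 4037 in KC-Tie2 and 2813, 2844 and 2882 in Control replicates 1 to 3 (0.32 on the log2 scale, limma adjusted p = 0.0838), and Pdxk, pyridoxal kinase, had a log2 fold change of 0.24 (limma adjusted p = 0.105). At Cyp2a5, Cyp2a4, Alas1 and Pdxk, Control replicate 2 lay beside the other Controls, unlike at Dbp and Tef. The targets Por and Nr1i3 differed from these in where Control replicate 2 lay. Por had 4737, 5290 and 5545 in KC-Tie2 and 6211, 5397 and 6489 in Control replicates 1 to 3. Its log2 fold change was -0.22 (limma unadjusted p = 0.0306, adjusted p = 0.264), while that of Nr1i3 was -0.09 (limma adjusted p = 0.953). Control replicate 2 thus lay within the KC-Tie2 range of Por, as at Dbp. Nr1i3 had 16.8, 26.7 and 33.2 in KC-Tie2 and 45.4, 14.6 and 26.8 in Control replicates 1 to 3, lowest in Control replicate 2.

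Of 9 kidney transport and water balance genes reported to be under clock control, 1 was called and 5 had an unadjusted p under 0.05. Over all genes tested, the shares were 1.69% and 15.3%. Of the 5, Aqp2, Avpr1a, Avpr2 and Scnn1a were higher in KC-Tie2 kidneys and Slc6a9 was lower. Scnn1a, the alpha subunit of the epithelial sodium channel, rose to 3743, 4180 and 3653 in KC-Tie2 replicates 1 to 3, against 2938, 2981 and 2872 in Control replicates 1 to 3. Its log2 fold change was 0.39 (limma adjusted p = 0.021). The Scnn1a call was lost without KC-Tie2 replicate 1 or 2, or Control replicate 1 or 3 (limma adjusted p = 0.0639, 0.116, 0.106 and 0.105). Avpr2, the vasopressin receptor of the collecting duct, had 440, 441 and 453.5 in KC-Tie2 and 270, 380 and 255 in Control replicates 1 to 3 (log2 fold change 0.58, limma adjusted p = 0.0655). Without Control replicate 2, Avpr2 (0.76, limma adjusted p = 0.0079) and Avpr1a (0.53, limma adjusted p = 0.0394) were called higher. Control replicate 2 was the highest Control library at both genes, so leaving it out widens these differences in any case.

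None of 10 glucocorticoid-responsive genes was called, and 0 had an unadjusted p under 0.05 in limma's test; the 2 smallest belonged to Errfi1 (limma adjusted p = 0.394) and Pdk4 (limma adjusted p = 0.5). None of 6 immediate early genes was called, with 2 at an unadjusted p under 0.05, Jun (log2 fold change 0.37, limma adjusted p = 0.0649) and Egr1 (log2 fold change -0.94, limma adjusted p = 0.233). None of 8 heat shock and cold-inducible genes was called, with 2 at an unadjusted p under 0.05, Hspa8 (log2 fold change -0.26, limma adjusted p = 0.15) and Hsp90aa1 (log2 fold change -0.45, limma adjusted p = 0.314).

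The genes whose profile over the 6 libraries was nearest to the most variable members were found by the root mean square difference of centred log2 values among 12255 genes with a mean of at least 50, pseudogenes and unnamed models left out. The 3 members with the largest SD over the 6 libraries were Ciart (0.62), Dbp (0.61) and Per2 (0.52). Nearest to Dbp were Slc13a2os (0.191), Wee1 (0.196), Zim1 (0.198), Tmc3 (0.203) and Rtp3 (0.224). Nearest to Ciart were Slc13a2os (0.172), Zim1 (0.234), Zbtb16 (0.238), Wee1 (0.242) and Asns, asparagine synthetase (0.242). Nearest to Per2 were Zim1 (0.124), Wee1 (0.144), Nrg4 (0.145), Nusap1 (0.155) and Pkdrej (0.168). Wee1 and Zim1 were thus among the 5 nearest genes of all 3 members. Zbtb16, a glucocorticoid-induced transcription factor, had 1784, 1144 and 1217 in KC-Tie2 and 1863, 568 and 1656 in Control replicates 1 to 3, again lowest in Control replicate 2. Among the 10 genes themselves the closest pair was Per3 and Tef (0.128), followed by Nr1d2 and Tef (0.149) and by Tef and Hlf (0.158), and the most distant was Per1 and Dbp (0.734). These distances describe 6 libraries and carry no test.

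Some reads of these genes may belong to neighbours. The annotated span of Nr1d1 overlaps Thra on the other strand (1310 to 1610 normalized counts), that of Dbp overlaps Sphk2 on the other strand (1170 to 1360) and that of Ciart overlaps the lncRNA C920021L13Rik on the other strand (31.5 to 53.3). No source used here says whether counting took strand into account. On its own strand, Per3 overlaps Camta1 (349 to 397), and Clock overlaps Gm43658 (60.9 to 81.2) and the pseudogene Ube2n-ps1 (279 to 324).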

How the data were processed

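RNA of 6 mouse kidney libraries (3 KC-Tie2, 3 Control) was analysed from deposited tables. The deposited values are a signal per gene, normalized counts. The submitters' processing notes name Partek (12.5.0), STAR, DESeq2 and mm39 without saying what each was used for. Reads could not be recovered: of the values below 60, 68.5% to 70.9% per library came within 0.01 of whole multiples of its step. Per the file headers, the authors' comparison gives a p-value, an FDR, a ratio of means and a signed fold change (a score).

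Columns were matched by library name. Genes with a mean of at least 10 were tested on log2(value + 1) with limma 3.58.1 under R 4.3.3, using lmFit and eBayes (trend, robust), two-sided; the script was tested on simulated data. Fold changes on this scale understate those of low genes. Tables and plots were made with Python 3.11.15, pandas 2.3.3, numpy 2.4.6 and matplotlib 3.10.9. Alternatives changed the pseudocount (0.5, 5), the filter (none, 100), the normalization (quantile, median-of-ratios), the replicate block, robust eBayes, library weights, or left out each library in turn. The 10 genes and all lists were chosen with earlier results of these data known. Named were the 10 genes, each list's called genes or its 2 smallest p, and the 5 nearest genes of the 3 most variable members; other genes and the ratios were chosen after their values were seen. The values of 1 listed gene are not reported here.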

Additional observations from a re-analysis of the deposited data

How the results depend on the processing

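The count of called genes was 297 and reached 581 with the replicate block and 549 with library weights, and leaving out 1 library at a time gave 48 to 682. The count of called members was 0, and 0 to 2 over the libraries left out. Of 150 fold changes of members under the alternatives, 142 kept direction and side of the threshold, 2 (Tef and Hlf without Control replicate 2) became called, and 6 reversed. Those were Per1 at -0.048 without KC-Tie2 replicate 3 (range over the libraries left out -0.048 to 0.37), Per2 at 0.13 without Control replicate 1 (-0.61 to 0.13), Nr1d1 at 0.075 without Control replicate 3 (-0.24 to 0.075), Nr1d2 at 0.0038 without Control replicate 1 (-0.33 to 0.0038), and Ciart at 0.017 without Control replicate 1 and 0.045 without Control replicate 3 (-0.78 to 0.045). The cause was not tested.

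The labels do not say whether replicate numbers pair the samples. Deviations of same-numbered libraries correlated at 0.178, -0.0956 and 0.0173, and KC-Tie2 replicate 2 correlated best with Control replicate 3 (0.26). These correlations cannot decide whether samples are paired, since each deviation is taken from a mean of only 3 libraries. With the replicate block, 581 genes were called, none of them a member; Rora (adjusted p = 0.0432) and Xist (adjusted p = 0.00548) were then called lower in KC-Tie2 kidneys, as was Cyp2a4, and Avpr2 higher. Cyp2a4 and Avpr2 were also called with library weights (adjusted p = 0.0269 and 0.0274), and Alas1 with quantile normalization (adjusted p = 0.0393). With 3 libraries a genotype, the 95% intervals of Per2, Dbp and Ciart span more than 2 log2 units.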
